A study of Mus musculus with 39 samples.

Results

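The data are polyadenylated RNA of mouse cells sorted as myeloid, and of unsorted marrow and intestinal cells. In them, 5 genes of the primary (azurophil) granule were followed: Mpo, Elane, Prtn3, Ctsg and Prss57. They were picked by symbol, are 5 of the 53465 genes in the deposited expression table, and all 5 are among the 18466 genes that passed the filter for testing (1 TPM or more in 3 or more libraries). Their usual group name, primary granule proteases, fits 4 of them, since Mpo encodes a peroxidase and the other four encode serine proteases of the neutrophil family. TPM is a transcript abundance per unit of length, scaled to a fixed total per library, so levels of different genes can be set side by side.

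The study sorted myeloid-derived suppressor cells (MDSCs), immature granulocytic or monocytic cells named for their dampening of T cell responses. It holds 39 libraries in 13 groups of 3. In APCmin/+ mutant mice, which carry a mutant allele of the tumour suppressor gene Apc, the groups are G-MDSC, M-MDSC and (G+M)-MDSC sorts and all cells of the intestine, and the same 3 sorts of the spleen. Spleens of BALB/c immune-deficiency mice gave G, M and (G+M) sorts, and bone marrow of C57BL/6 newborns at postnatal day 7 gave G and M sorts and all cells. The labels give neither the surface markers of the sorts, nor the ages of the APCmin/+ and BALB/c mice, nor the gene behind the immune deficiency, and they do not say whether mice were pooled. Between marrow and spleen, the site, the strain or genotype and possibly the age change together and cannot be told apart. Nothing states that different animals stood behind the 3 libraries of a group. Each p-value thus speaks of the spread between libraries alone, which may be technical. In the main fit this spread is pooled for each gene over all 13 groups. Standard errors (SE) and p-values therefore do not describe the groups compared alone. Groups with a wide spread raise the SE given for tight groups, and tight groups lower the SE given for wide groups. A fit of only the groups compared was run as an alternative.

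Primary granules are the first granules a developing neutrophil makes, and their enzymes are transcribed mainly at the promyelocyte stage, before the secondary granule proteins of myelocytes and metamyelocytes. Monocyte precursors also transcribe these genes. Transcription is shut off as the cells mature, while the stored proteins stay, so that a mature neutrophil is rich in myeloperoxidase protein and poor in its mRNA. Mpo makes hypochlorous acid, Elane is neutrophil elastase, Prtn3 is proteinase 3, Ctsg is cathepsin G, and Prss57 is neutrophil serine protease 4.

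Mpo, Elane, Prtn3 and Ctsg have an entry in the RefSeq promoter table for GRCm38.p6, which gives 250 bases before and 50 bases after the start of each gene. The promoters are shown because these genes moved together and because factors of the ETS, Myb and C/EBP families are known to act on them. Capitals mark AGGAAGT, an ETS core of the form bound by PU.1, chosen with these sequences in view. The regions are chr11:87793534-87793833 on the plus strand for Mpo, chr10:79886062-79886361 on the plus strand for Elane, chr10:79879417-79879716 on the plus strand for Prtn3 and chr14:56102525-56102824 on the minus strand for Ctsg, each written 5′ to 3′ along its gene.
Mpo: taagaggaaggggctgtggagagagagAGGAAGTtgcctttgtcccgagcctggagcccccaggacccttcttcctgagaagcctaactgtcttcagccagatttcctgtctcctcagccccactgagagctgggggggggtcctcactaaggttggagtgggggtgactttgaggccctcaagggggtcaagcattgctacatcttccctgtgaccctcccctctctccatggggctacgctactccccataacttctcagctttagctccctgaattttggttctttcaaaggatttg
Elane: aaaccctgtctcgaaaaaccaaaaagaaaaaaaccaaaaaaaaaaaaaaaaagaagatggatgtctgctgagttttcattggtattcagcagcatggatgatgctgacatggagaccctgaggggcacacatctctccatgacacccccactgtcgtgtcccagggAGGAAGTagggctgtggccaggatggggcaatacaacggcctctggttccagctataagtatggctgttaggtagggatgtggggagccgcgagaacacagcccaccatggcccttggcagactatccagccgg
Prtn3: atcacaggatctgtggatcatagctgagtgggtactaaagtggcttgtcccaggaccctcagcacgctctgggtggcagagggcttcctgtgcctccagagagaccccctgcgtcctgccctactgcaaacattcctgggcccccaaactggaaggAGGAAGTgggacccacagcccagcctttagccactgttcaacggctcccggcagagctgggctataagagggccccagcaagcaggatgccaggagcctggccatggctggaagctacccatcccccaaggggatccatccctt
Ctsg: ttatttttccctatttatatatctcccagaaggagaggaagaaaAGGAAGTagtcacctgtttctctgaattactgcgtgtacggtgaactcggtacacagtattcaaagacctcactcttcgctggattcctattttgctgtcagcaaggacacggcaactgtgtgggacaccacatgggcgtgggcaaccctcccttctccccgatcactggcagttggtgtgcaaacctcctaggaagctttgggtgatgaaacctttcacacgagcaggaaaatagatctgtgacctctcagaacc

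All 4 promoters held AGGAAGT, in the direction of the gene, with its first base at -223 in Mpo, -84 in Elane, -94 in Prtn3 and -206 in Ctsg, counted from the RefSeq start. Over 32851 promoters of the same length, searched on both strands like the 4 here, 9.35% held these letters. Since the letters were chosen with these sequences in view, the match in all 4 cannot be weighed against this share. The Myb core AACNG occurred in all 4 as well, but 80.3% of all promoters held it. The C/EBP form TTGCNNAA was in none of the 4, against 10.8% of all promoters. TATAAA was found in 1 of the 4, on the opposite strand at -237 in Ctsg, against 13.6% of all. A match describes these letters and shows no binding.

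Markers of the sorted types were read before the protease values. Ly6g, a surface protein of granulocytes, averaged 279.7 TPM in G and 103 TPM in M of marrow, so the marrow M sort also held neutrophil transcripts. Ccr2, a chemokine receptor of monocytes, averaged 6.00 TPM in marrow G and 323 TPM in marrow M. In BALB/c spleen the M sort was poorer in neutrophil transcripts, with a Ly6g mean of 17.3 TPM, while in APCmin/+ spleen Ly6g averaged 244 TPM in G and 236 TPM in M. The intestinal G, M and (G+M) sorts did not carry the profile of their myeloid labels. The summed TPM of 11 epithelial genes was 11520 to 16263 in the 12 intestinal libraries, all-cell libraries included. It was at most 106 in the libraries of spleen and marrow. Ly6g averaged 1.97 TPM in the intestinal G sort. The intestinal groups are called by their labels below.

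The 5 genes were highest in unsorted newborn marrow, next in the marrow M sort, and near 0 in most intestinal libraries. Mpo stood at 59.2, 108 and 139 TPM in the marrow G sort, at 638, 869.6 and 887 TPM in the marrow M sort, and at 1159.9, 1518 and 1097 TPM in all marrow cells. The 3 marrow groups did not overlap with each other for Mpo, and of all genes tested 55.5% kept apart between G and M, 63.2% between G and all cells and 66.4% between M and all cells. In APCmin/+ spleen, Mpo was at 1.63, 20.1 and 5.94 TPM in the G sort and at 4.40, 142 and 25.2 TPM in the M sort. BALB/c spleen had 0.39, 0.44 and 1.12 TPM of Mpo in G and 8.54, 20.1 and 11.5 TPM in M. The APCmin/+ spleen sorts spread widely between libraries, and library 2 was the highest in both. The (G+M) sorts were low and tight, at 2.85 to 4.58 TPM of Mpo in APCmin/+ spleen and 0.49 to 1.33 TPM in BALB/c spleen. Of the 12 intestinal libraries, 10 were at 0.23 TPM of Mpo or less, and the other two were the all-cell library 3 at 7.73 TPM and the G library 2 at 2.77 TPM.

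Elane and Prtn3, which lie next to each other on chromosome 10, followed the same order. Elane was at 25.3, 42.6 and 48.5 TPM in marrow G, at 341, 427 and 386 TPM in marrow M, and at 560.2, 752 and 547 TPM in all marrow cells. Prtn3 was at 27.8, 50.9 and 58.3 TPM in marrow G, at 478, 590.5 and 577 TPM in marrow M, and at 691, 917 and 716 TPM in all marrow cells. The marrow groups kept apart for both genes, beside the shares of all genes given for Mpo for each pair of groups. In the APCmin/+ spleen, Elane had 1.17, 14.0 and 4.57 TPM in G and 4.11, 86.5 and 19.9 TPM in M. Prtn3 had 1.50, 15.9 and 5.68 TPM in G and 6.87, 111.5 and 36.4 TPM in M there. The sorts overlapped for both genes in APCmin/+ mice, and in BALB/c mice they kept apart. In BALB/c spleen, Elane had 0.73, 0.36 and 0.42 TPM in G and 11.3, 24.0 and 20.0 TPM in M. Prtn3 had 1.28, 1.61 and 2.76 TPM in G and 16.4, 28.4 and 35.6 TPM in M of the same spleens. By mean, Prtn3 was higher in APCmin/+ spleen M than in marrow G (51.6 ± 53.9 against 45.7 ± 15.9 TPM, SD, n = 3 each), with overlapping libraries.

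Ctsg was lower throughout, and Prss57 was the least abundant of the 5 in marrow. Ctsg was at 12.8, 21.9 and 24.6 TPM in marrow G, at 110.01, 141.5 and 136 TPM in marrow M, and at 248, 332 and 247 TPM in all marrow cells. In APCmin/+ spleen it had 0.46, 5.80 and 1.73 TPM in G and 2.88, 33.3 and 6.43 TPM in M. BALB/c spleen had at most 0.14 TPM of Ctsg in G and 1.99, 5.41 and 3.81 TPM in M. It was listed at 0 in all 6 libraries of the intestinal M and (G+M) sorts. For both Ctsg and Prss57 the 3 marrow groups kept apart as well, beside the same shares of all genes. Prss57 was at 7.31, 9.04 and 8.97 TPM in marrow G, at 17.2, 20.9 and 15.8 TPM in marrow M, and at 28.7, 44.2 and 29.5 TPM in all marrow cells. In BALB/c spleen Prss57 did not follow the other genes, and its 3 groups held about the same low levels. They were 0.89 to 1.21 TPM in G, 0.53 to 1.55 TPM in M and 0.49 to 1.13 TPM in (G+M). In APCmin/+ spleen Prss57 had 0.71, 1.31 and 3.11 TPM in G and 2.22, 5.12 and 4.08 TPM in M. By mean it was higher in M there, like the other genes, with overlapping libraries.

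Over all 13 groups, the order by mean was the same at the top for Mpo, Elane and Ctsg: all marrow cells, marrow M, marrow G, APCmin/+ spleen M, BALB/c spleen M, APCmin/+ spleen G and APCmin/+ spleen (G+M). Among neighbours in this order, only the 3 marrow groups kept apart from each other, since marrow G overlapped with APCmin/+ spleen M and every later neighbour in the list overlapped with the next. Prss57 departed from it, with marrow G above every APCmin/+ spleen M library and BALB/c spleen M below BALB/c spleen G by mean, with overlap. The depth of the libraries is unknown, because TPM keeps no counts, so a level of 0 is written as listed at 0.

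**Figure D1:**
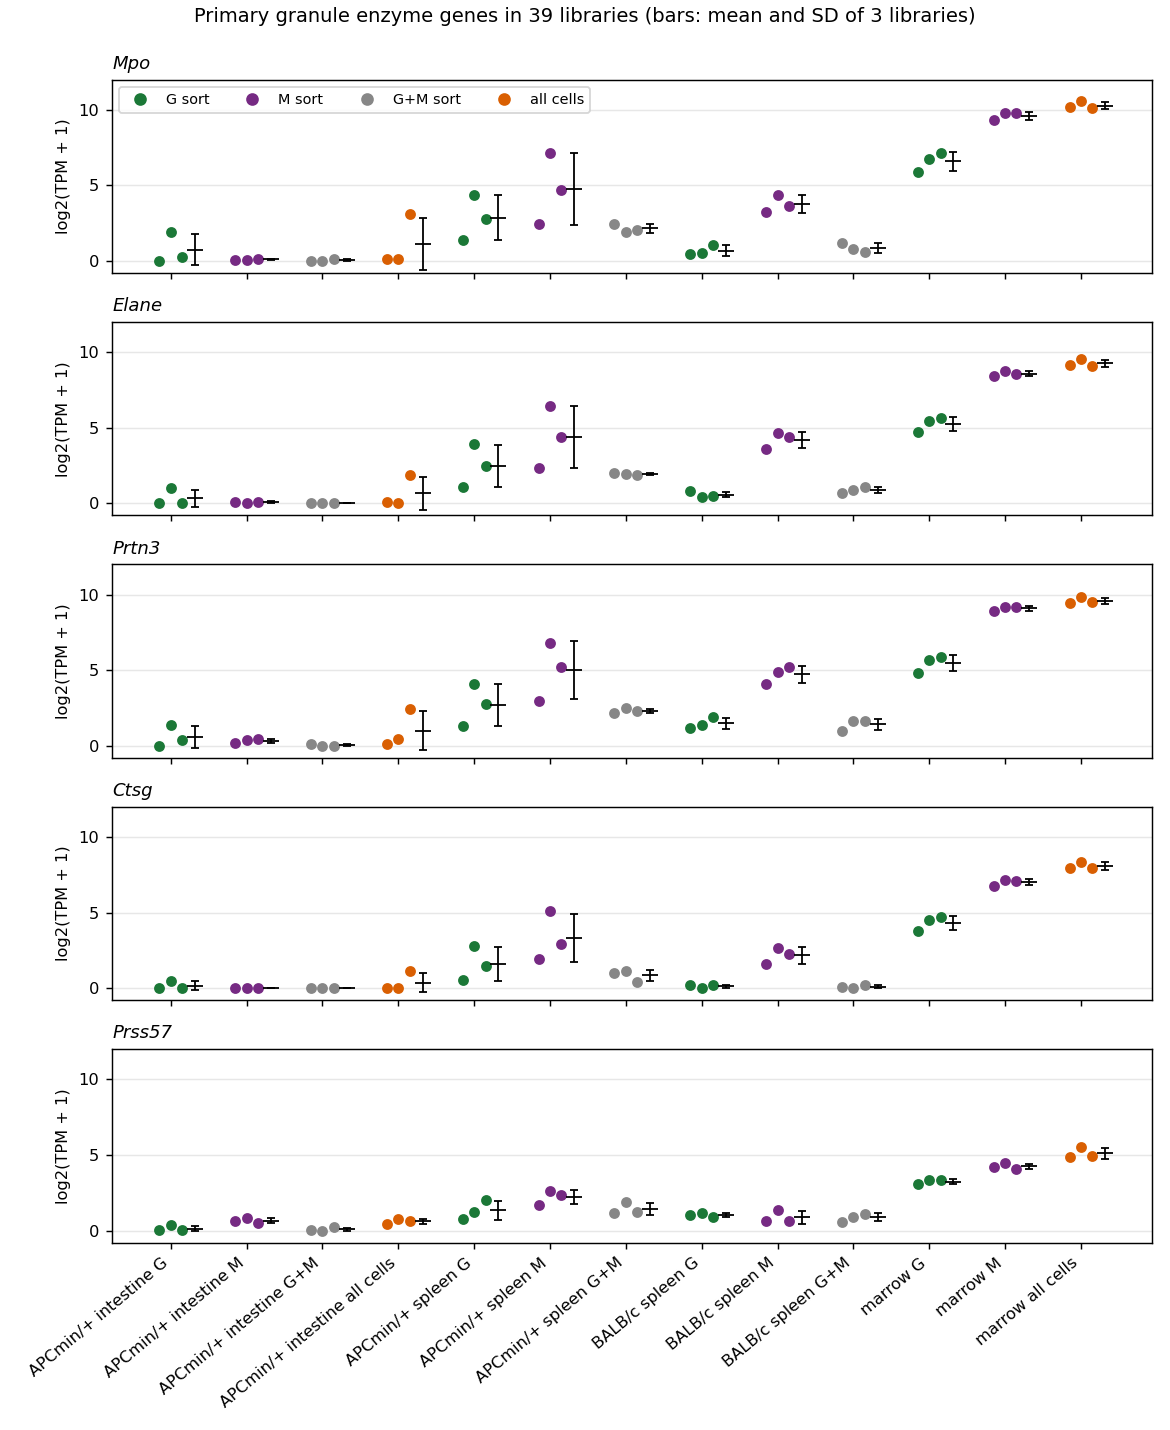
Level of each gene as log2(TPM + 1) in the 39 libraries, by group; points are libraries and bars are the mean and SD of 3. By mean on this scale, the 3 marrow groups are highest. The spleen M sorts lie above the spleen G sorts by mean for Mpo, Elane, Prtn3 and Ctsg, with overlapping libraries in APCmin/+ spleen. Most intestinal libraries lie near 0.

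In newborn marrow, the G sort held less RNA of all 5 genes than the M sort. Prtn3 changed by a log2 fold change of -3.62 ± 0.64 (SE), Elane by -3.32 ± 0.62, Mpo by -3.02 ± 0.78 and Ctsg by -2.69 ± 0.49, with limma adjusted p-values of 4.89e-05, 0.000108, 0.00313 and 7.71e-05. Prss57 had the smallest change, -1.0 ± 0.26 with an adjusted p of 0.00283, just at the fold minimum. Genes count as called below an adjusted p of 0.05 if their log2 fold change also reached 1 in either direction, on log2(TPM + 1), a scale that understates the changes of low genes. By that rule 5 of 5 were called lower, beside 3.33% of all genes tested. Their median log2 fold change was -3.02, beside 0.04 over all genes. The call of Prss57 was lost with a pseudocount of 0.1 (-1.08, adjusted p = 0.0806) and with libraries rescaled by their median ratio (-0.96, under the fold minimum), which leaves 4 of 5. It was also lost without marrow G library 1 or marrow M library 2, with values between -1.09 and -0.90 over the single libraries left out. In bulk RNA, fewer cells of a type and less RNA per cell cannot be told apart, here and below.

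Other markers moved between these marrow libraries. In G, 11 of 12 monocyte genes were lower, among them Fn1, fibronectin, at 25.2 TPM in G and 1046 TPM in M. Of 12 mature neutrophil genes, 8 were higher, among them Retnlg at 7142 TPM in G and 1685 TPM in M. B and plasma cell genes were higher in G for 12 of 13, with summed levels of 4290 to 4683 TPM in G and 704 to 896 TPM in M, and none of the 13 was listed at 0 throughout either sort. Stromal and endothelial genes were higher for 8 of 8, with sums of 342 to 645 TPM in G and 49.4 to 96.2 TPM in M. The part of these cells in the lower enzyme levels of the G sort was not tested.

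Against all marrow cells, both sorts held less of the enzymes, the G sort by far the most. All 5 genes were called lower in G than in all cells, beside 9.49% of the genes tested, with log2 fold changes of -4.11 ± 0.64 for Prtn3, -4.00 ± 0.62 for Elane, -3.77 ± 0.49 for Ctsg, -3.68 ± 0.78 for Mpo and -1.87 ± 0.26 for Prss57. The adjusted p-values were between 2e-07 and 0.000199. The M sort lay below all cells in every library for all 5 genes, beside the 66.4% of all genes given above that kept apart. None of the 5 was called by limma, beside 19.1% of all genes called in either direction, and 2 had an unadjusted p under 0.05. These were Ctsg at -1.08 ± 0.49 (adjusted p = 0.0675) and Prss57 at -0.87 ± 0.26 (adjusted p = 0.0052, under the fold minimum). Mpo, Elane and Prtn3 differed by -0.66 ± 0.78, -0.68 ± 0.62 and -0.49 ± 0.64.

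Unsorted marrow also led for transcripts of other lineages. The summed TPM of 9 erythroid genes was 509 to 831 in marrow M and 40360 to 71499 in all marrow cells. Basophil and mast cell genes were lower in M than in all cells for 9 of the 11 tested of a list of 12: Mcpt8, a granule protease of basophils, averaged 20.4 ± 2.41 TPM in M and 181 ± 38.4 TPM in all cells, and Prss34 averaged 15.1 ± 2.94 TPM in M and 145 ± 30.8 TPM in all cells (SD, n = 3 each). The list summed to 40.2 to 51.7 TPM in M and 344 to 495 TPM in all cells, and Mcpt1, Mcpt2 and Tpsab1 were listed at 0 in marrow M. Early progenitor genes were lower in M for 5 of 8, among them Kit, the stem cell factor receptor, at 14.8 TPM in M and 35.3 TPM in all cells. The part of these cells in the enzyme levels of unsorted marrow was not tested.

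In BALB/c spleen, the G sort was lower than the M sort for Mpo, Elane, Prtn3 and Ctsg, and Prss57 was not. The log2 fold changes were -3.64 ± 0.62 for Elane, -3.24 ± 0.64 for Prtn3, -3.07 ± 0.78 for Mpo and -2.05 ± 0.49 for Ctsg, with adjusted p-values from 7.17e-05 to 0.00478. The libraries of these 4 genes did not overlap between the sorts, nor did those of 40.8% of all genes. Thus 4 of 5 were called lower, beside 3.24% of the genes tested. Prss57 gave 0.17 ± 0.26 with an adjusted p of 0.787 and overlapping libraries. Monocyte genes were lower in G for 10 of 12 and mature neutrophil genes higher for 7 of 12, and of 14 cell cycle genes none was called.

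In APCmin/+ spleen, the same direction was seen, with libraries that overlapped for every gene. Prtn3 (-2.29 ± 0.64, adjusted p = 0.011), Ctsg (-1.73 ± 0.49, adjusted p = 0.0124) and Elane (-1.89 ± 0.62, adjusted p = 0.0295) were called lower in G than in M, 3 of 5 beside 2.64% of all genes. Mpo gave -1.91 ± 0.78 (adjusted p = 0.0799) and Prss57 -0.87 ± 0.26 (adjusted p = 0.0149, under the fold minimum). The G and M libraries of one number deviated together here, and with the replicate number as a block none of the 5 was called, with an adjusted p of 0.147 for each of Elane, Prtn3 and Ctsg. In that blocked fit no gene of the whole table was called, while 4912 had an unadjusted p under 0.05. The call of Elane was also lost with no filter (adjusted p = 0.0588) and with rescaling (adjusted p = 0.0545), and a pseudocount of 0.1 left none of the 5 called. Leaving out single libraries gave between 0 and 5 genes called. The call of Elane was lost without G library 1 or 3 or M library 2 or 3, that of Prtn3 without G library 1 or M library 2, and that of Ctsg without G library 1 or 3 or M library 2, while Mpo was called without G library 2 or M library 1 and Prss57 without G library 3 or M library 1. Other lists moved between these sorts: 13 of 14 cell cycle genes and 9 of 12 monocyte genes were lower in G and 5 of 12 mature neutrophil genes were higher. With the block none of the 14 cell cycle genes was called, and without single libraries 9 to 14 were. The part of these cells in the enzyme difference was not tested.

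**Figure D2:**
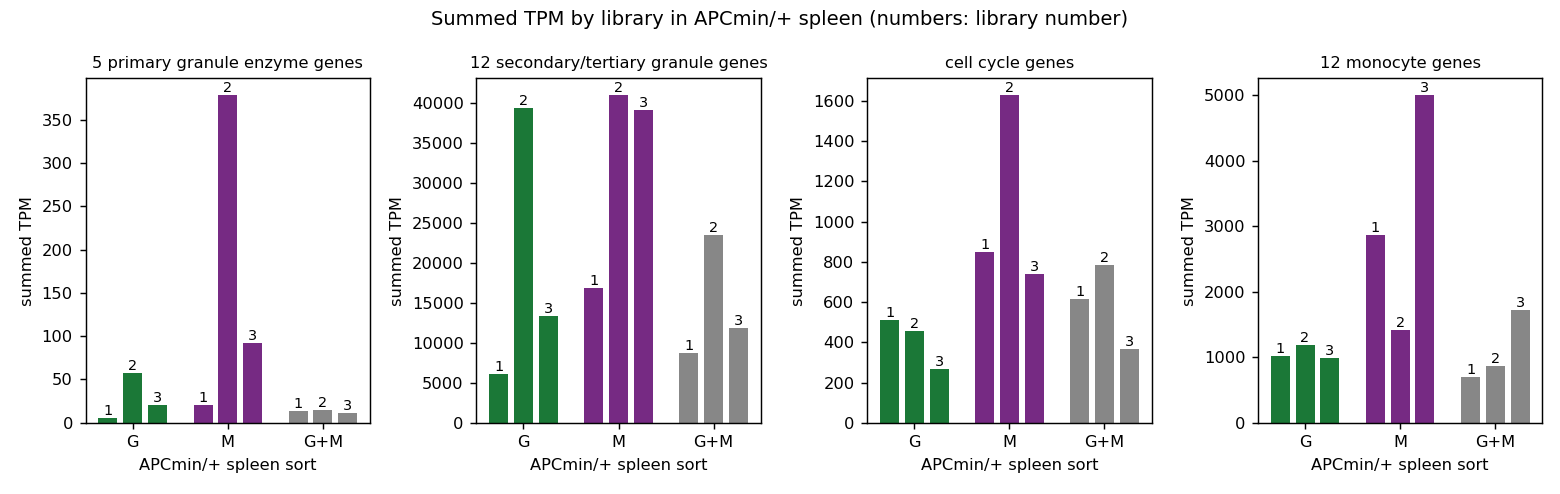
Summed TPM of 4 gene lists in each APCmin/+ spleen library, by sort, with the library number above each bar. Library 2 is the highest for the 5 granule enzyme genes in both G (57.1 TPM) and M (379 TPM), and library 2 of the M sort is the lowest of M for the 12 monocyte genes (1417 TPM).

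The spread in APCmin/+ spleen came with the library number. The 5 genes summed to 5.47, 57.1 and 21.0 TPM in G libraries 1, 2 and 3, and to 20.5, 379 and 92.1 TPM in the M libraries of the same numbers. Within each number the G library held less than the M library. The (G+M) libraries, at 13.4, 14.2 and 11.4 TPM, did not share this spread. Secondary and tertiary granule genes summed to 6140, 39406 and 13346 TPM in G and to 16838, 41003 and 39155 TPM in M, also lowest in library 1. The monocyte list ran otherwise, with 2872, 1417 and 5005 TPM in M. Library 2 of M was also the highest for 14 cell cycle genes, at 1630.3 TPM against 847 and 737 TPM in libraries 1 and 3, for Kit, at 21.5 TPM against 7.21 and 8.48 TPM, and for Mcpt8, at 20.5 TPM against 1.30 and 6.51 TPM. The part of this library's other cells in its enzyme levels was not tested.

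The intestinal G and M sorts showed no called difference in the 5 genes by limma, beside 2.83% of genes called in either direction, and none had an unadjusted p under 0.05. Prss57 was at 0.02, 0.26 and 0.02 TPM in G and 0.55, 0.76 and 0.42 TPM in M, without overlap, a difference of -0.52 ± 0.26 with an adjusted p of 0.221. The (G+M) sort and all intestinal cells likewise gave 0 of 5 called, beside 3.24% of genes, with 1 unadjusted p under 0.05, that of Prss57 (0.0494). The G library 2 with 6.03 TPM of the 5 genes in sum also had the most Ngp, a secondary granule protein, at 101 TPM against 1.19 and 1.66 TPM in G libraries 1 and 3. All-cell library 3, with 16.6 TPM in sum, had 22.8 TPM of Ngp against 3.44 and 3.90 TPM in libraries 1 and 2.

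Between the 2 kinds of spleen, APCmin/+ G held more of 3 enzymes than BALB/c G. Mpo rose by a log2 fold change of 2.17 ± 0.78 (adjusted p = 0.0333), Elane by 1.92 ± 0.62 (adjusted p = 0.0188) and Ctsg by 1.47 ± 0.49 (adjusted p = 0.0229), making 3 of 5 called higher beside 3.10% of all genes. The libraries of these 3 kept apart, as did those of 40.7% of all genes. Prtn3 gave 1.22 ± 0.64 and Prss57 0.31 ± 0.26, neither called. With no filter the adjusted p of Mpo was 0.0617. Leaving out the APCmin/+ G and M libraries numbered 2 left none of the 5 called, as did a fit of these 6 libraries alone, and single libraries left out gave 0 to 4. The calls of Elane and Ctsg were lost without APCmin/+ G library 2 or BALB/c G library 2 or 3, that of Mpo without APCmin/+ G library 2 or 3 or any BALB/c G library, and Prtn3 was called without APCmin/+ G library 1. Among 12 genes of secondary and tertiary granules 6 were higher in APCmin/+ G, as were 7 of 14 cell cycle genes and 5 of 9 erythroid genes. The erythroid list summed to 3719 to 10496 TPM in APCmin/+ G and 2391 to 5568 TPM in BALB/c G, and the part of these cells was not tested.

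In the M sort the enzyme that differed was Prss57. It averaged 3.81 ± 1.47 TPM in APCmin/+ and 0.877 ± 0.583 TPM in BALB/c M cells (SD, n = 3 each), with a log2 fold change of 1.35 ± 0.26 and an adjusted p of 0.000124, and was 1 of 5 called higher, beside 5.51% of genes. Mpo, Elane, Prtn3 and Ctsg gave 1.00 ± 0.78, 0.18 ± 0.62, 0.28 ± 0.64 and 1.14 ± 0.49, with overlapping libraries. Without APCmin/+ library 2, Mpo, Elane and Prtn3 turned to -0.19, -0.85 and -0.63, and without APCmin/+ library 1 Mpo and Ctsg were called as well. In a fit of these 6 libraries alone the adjusted p of Prss57 was 0.0585. Over the same 2 groups, APCmin/+ M held more RNA of 11 among 12 secondary and tertiary granule genes, such as Ltf, lactoferrin, at 7122 TPM in APCmin/+ and 351 TPM in BALB/c. Cell cycle genes were higher for 12 of 14, mature neutrophil genes for 10 of 12 and erythroid genes for 7 of 9, and monocyte genes lower for 9 of 12, with monocyte sums of 1417 to 5005 TPM in APCmin/+ M and 4912 to 7003 TPM in BALB/c M. Erythroid sums were 3654 to 15969 TPM in APCmin/+ M and 2331 to 5031 TPM in BALB/c M. The part of the mix of neutrophil, monocyte and erythroid cells in these differences was not tested.

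The (G+M) sorts kept the same direction with little spread. All 5 genes were higher in every APCmin/+ than in every BALB/c (G+M) library, Mpo at 4.58, 2.85 and 3.12 TPM against 1.33, 0.71 and 0.49 TPM, and the libraries of 37.4% of all genes kept apart too. None of the 5 was called by limma over all 39 libraries, beside 9.00% of genes called in either direction, and 1 had an unadjusted p under 0.05. The log2 fold changes lay between 0.56 ± 0.26 for Prss57 and 1.30 ± 0.78 for Mpo. Cell cycle genes were higher for 11 of 14, secondary and tertiary granule genes for 7 of 12 and erythroid genes for 7 of 9, and their part was not tested.

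All 5 enzymes fell in spleen relative to newborn marrow, in both sorts and both kinds of mice, without overlap for any of the 5. Of all genes tested, 71.4% and 68.7% kept apart in BALB/c G and M against marrow, and 53.0% and 50.4% in APCmin/+ G and M against marrow. In the BALB/c G sort 5 of 5 were called lower, beside 11.4% of genes, from -5.91 ± 0.78 for Mpo to -2.20 ± 0.26 for Prss57. The BALB/c M sort had 5 of 5 called lower, beside 7.98% of genes, from -5.86 ± 0.78 for Mpo to -3.37 ± 0.26 for Prss57. In the APCmin/+ G sort 5 of 5 were called lower, beside 9.62%, from -3.74 ± 0.78 for Mpo to -1.89 ± 0.26 for Prss57. The APCmin/+ M sort had 5 of 5 called lower, beside 4.64%, from -4.86 ± 0.78 for Mpo to -2.02 ± 0.26 for Prss57. The largest adjusted p over these 20 values was 0.00062. Prss57 averaged 1.05 TPM in BALB/c spleen G and 0.877 TPM in BALB/c spleen M. These levels are near the pseudocount of 1, so this scale understates its change. Both spleens are set against the same marrow libraries. Spleens also carried more lymphocyte RNA, with B and plasma cell genes higher for 10 and lower for 3 of 13 in either M sort and sums of 20925 to 57198 TPM in spleen M against 704 to 896 TPM in marrow M. Their part in the lower enzyme shares was not tested.

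The intestinal sorts of APCmin/+ mice lay below the spleen sorts of APCmin/+ mice. In G 5 of 5 were called lower, beside 22.2% of genes, from -2.17 ± 0.62 for Elane to -1.21 ± 0.26 for Prss57. Without spleen G library 2 the calls of Mpo, Prtn3 and Ctsg were lost, without intestinal G library 1 or 3 that of Mpo, and without spleen G library 3 that of Prss57. In M 5 of 5 were called lower, beside 25.7%, among them Prtn3 at -4.68 ± 0.64 and Prss57 at -1.56 ± 0.26, while Ctsg was listed at 0 in every intestinal M library. In the (G+M) sort 4 of 5 were called lower, beside 19.9%. There Elane and Ctsg were listed at 0 in every intestinal library, and Mpo, Prtn3 and Prss57 gave -2.11 ± 0.78, -2.29 ± 0.64 and -1.34 ± 0.26, the call of Mpo being lost without spleen library 1. The epithelial genes named above filled the intestinal libraries, at sums of 11520 to 16263 TPM against 25.3 to 90.2 TPM in APCmin/+ spleen, and their part was not tested.

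**Figure D3:**
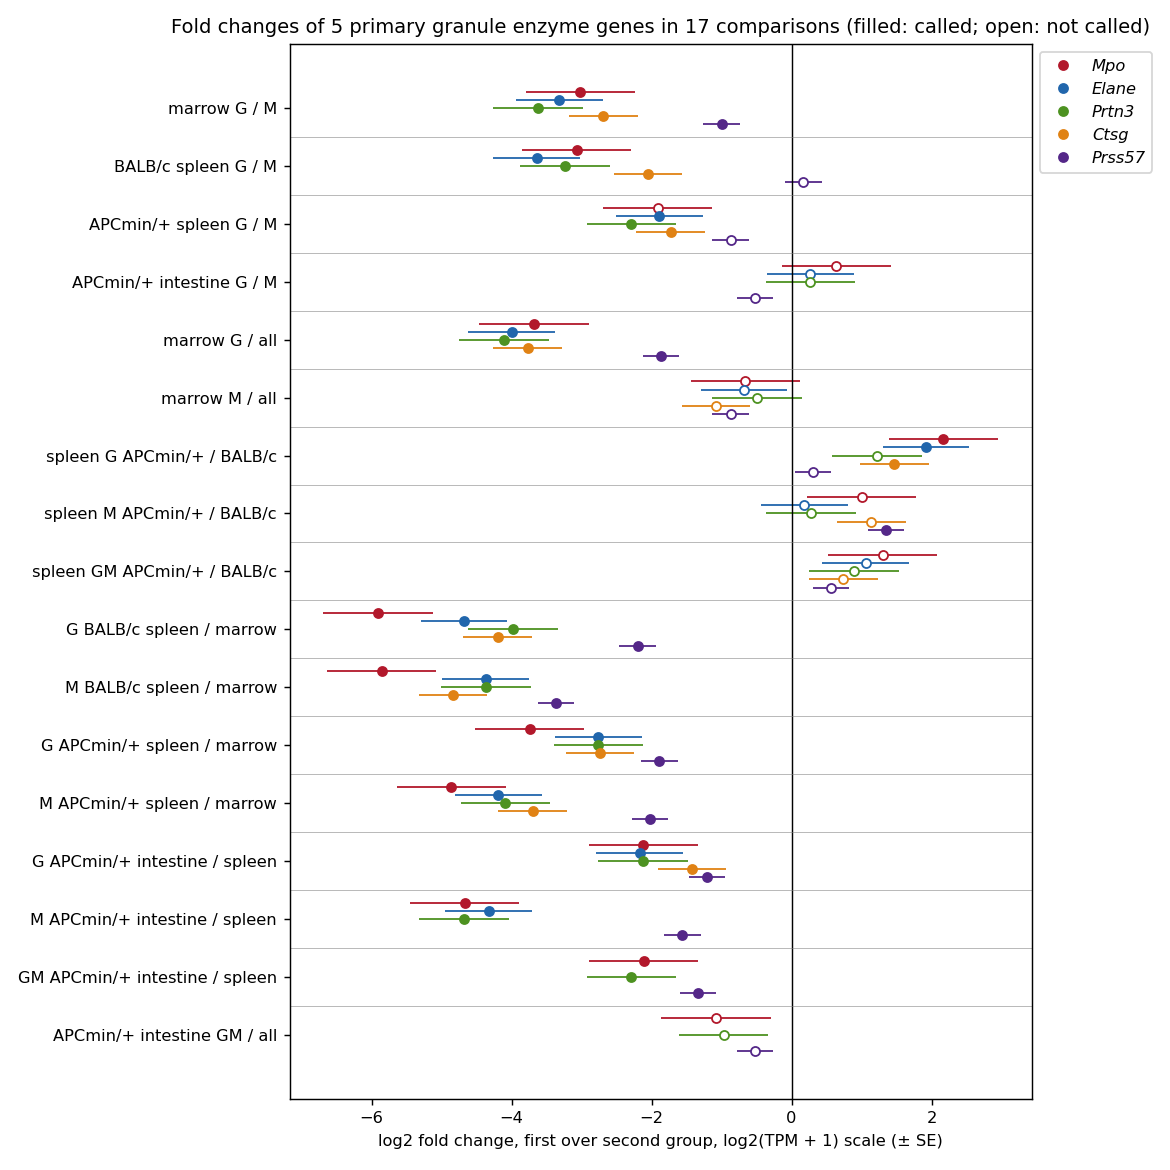
Log2 fold changes (± SE) of the 5 genes in 17 comparisons, first over second group, on log2(TPM + 1); filled points were called and open points were not, and no point is drawn where a group is listed at 0 throughout. In the spleen against marrow comparisons every gene is called lower. In those comparisons Prss57 moves least on this scale, which understates the changes of low genes. In APCmin/+ against BALB/c spleen M it moves most (1.35).

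The G against M difference was itself compared between sites. For Prss57 the BALB/c spleen difference lay above the marrow difference by 1.17 ± 0.36 (adjusted p = 0.0263), 1 of 5 called higher beside 1.51% of genes. In marrow Prss57 was 8.44 ± 0.979 TPM in G and 18.0 ± 2.61 TPM in M, and in BALB/c spleen it was 1.05 ± 0.16 TPM in G and 0.877 ± 0.583 TPM in M (SD, n = 3 each). The call was lost with a pseudocount of 0.1 (1.46, adjusted p = 0.153) and without marrow G library 1, marrow M library 2, BALB/c G library 2 or BALB/c M library 1 or 3. For Mpo, Elane, Prtn3 and Ctsg the same difference was -0.05 ± 1.10, -0.32 ± 0.88, 0.38 ± 0.90 and 0.64 ± 0.69, none called. Between APCmin/+ spleen and marrow, none of the 5 was called by limma and none had an unadjusted p under 0.05, beside 7.72% of genes called in either direction, with values from 0.13 ± 0.36 for Prss57 to 1.43 ± 0.88 for Elane. Without APCmin/+ M library 2, Elane and Ctsg were called.

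The make-up of the enzyme RNA differed between groups. In all marrow cells the 5 genes summed to 2688, 3563 and 2636 TPM, 0.296% of the TPM total by mean, of which Mpo made up 42.5% ± 0.778, Prtn3 26.2% ± 0.824, Elane 20.9% ± 0.189, Ctsg 9.30% ± 0.0709 and Prss57 1.14% ± 0.0887 (SD, n = 3). Marrow M, at 0.188% of the TPM total, had 42.3% ± 2.01 of Mpo and 29.3% ± 0.775 of Prtn3. Marrow G had 47.0% ± 2.53 of Mpo, 21.3% ± 0.534 of Prtn3 and 4.21% ± 1.19 of Prss57. In 5 of the 6 spleen groups Prtn3 had the largest mean share. It made up 42.6% ± 7.03 in the BALB/c spleen M sort, with Elane at 29.1% ± 1.10 and Mpo at 21.2% ± 4.65. The Mpo shares of BALB/c spleen M, 16.1% to 25.3%, lay below all 9 marrow libraries, whose lowest was 40.3%. In BALB/c G and (G+M), where the 5 genes averaged only 4.18 and 4.37 TPM in sum, Prtn3 made up 44.0% ± 8.02 and 39.0% ± 9.24, and Mpo 14.7% ± 5.51 and 21.0% ± 14.7. In APCmin/+ spleen Prtn3 made up 27.4% ± 0.434 in G, 34.2% ± 5.10 in M and 31.0% ± 3.94 in (G+M). Mpo made up 31.1% ± 3.60 in G, 28.8% ± 8.14 in M and 27.2% ± 7.10 in (G+M) of the same spleens, so that Mpo led in G alone, and its library shares overlapped with those of Prtn3 in M and (G+M). Shares were not tested, and spleen and marrow differ in strain and site together.

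**Figure D4:**
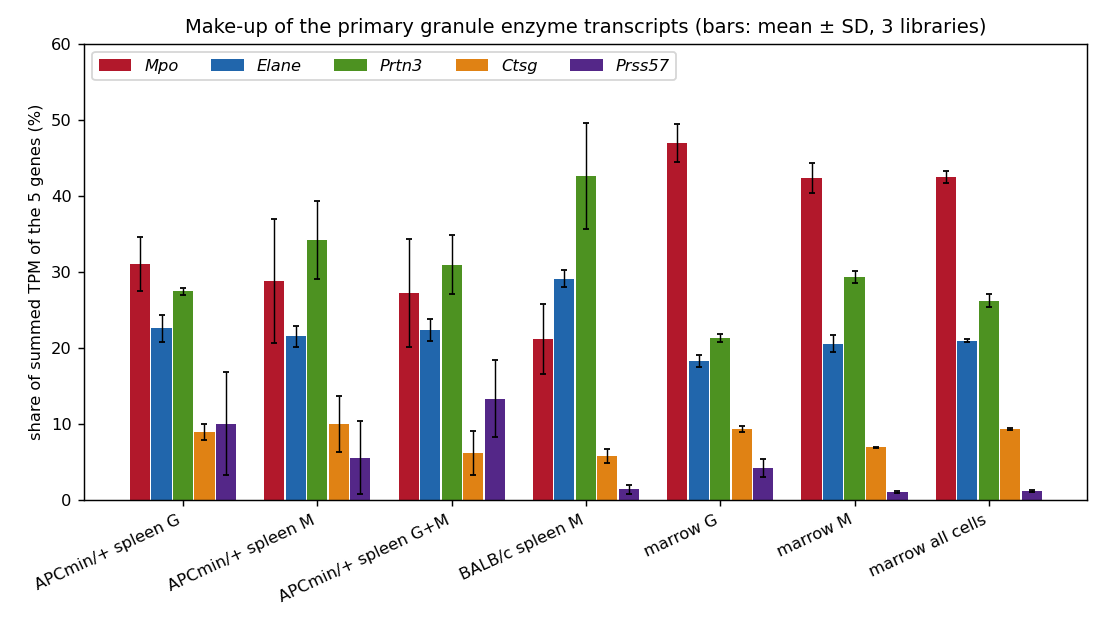
Share of each gene in the summed TPM of the 5 genes, for the 7 groups whose mean sum is at least 10 TPM; bars are means and error bars the SD of 3 libraries. Mpo has the tallest bar in the 3 marrow groups and APCmin/+ spleen G (31.1%), and Prtn3 in APCmin/+ spleen M (34.2%) and (G+M) (31.0%) and in BALB/c spleen M (42.6%).

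Across the 39 libraries the members ran closely together, as a description with no test, since libraries share groups. Pearson r on log2(TPM + 1) was 0.979 to 0.996 among Mpo, Elane, Prtn3 and Ctsg, and 0.93 to 0.955 between each of them and Prss57. Within groups, for deviations from the group means, r was 0.909 to 0.962 among Mpo, Elane, Prtn3 and Ctsg and 0.424 to 0.512 with Prss57. Few libraries can weigh heavily on these values. Mpo ranged from 4.40 to 142 TPM within APCmin/+ spleen M and from 638 to 887 TPM within marrow M. The part of single libraries was not tested.

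A list of other primary granule and granule processing genes did not share the pattern as a whole. It held Ctsc, Srgn, Cd63, Bpi, Lyz2, Gusb and Ctsd. Of 7, 6 were tested, and in marrow G against M 2 were lower and 1 higher, with a median of -0.46. Ctsc, cathepsin C, which activates the serine proteases by removing a dipeptide, averaged 34.2 ± 2.69 TPM in G and 353 ± 20.3 TPM in M (SD, n = 3 each), a log2 fold change of -3.33 ± 0.33 with an adjusted p of 3.44e-09. Unlike the enzymes, Ctsc was higher in marrow M than in all marrow cells, by 2.34 ± 0.33. Srgn, serglycin, the proteoglycan that packs granule proteases, was higher in marrow G, at 574 TPM in G and 284 TPM in M. Its log2 fold change of 1.02 lay just past the fold minimum, and the call was lost without marrow G library 3 or marrow M library 1 or 2. Lyz2, lysozyme, was lower in the G sort of BALB/c spleen (1332 TPM in G and 10941 TPM in M). Bpi, bactericidal permeability-increasing protein, had a highest group mean of 0.133 TPM, in marrow G, and was not tested.

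Inhibitors of these proteases were higher in marrow G than in M for 3 of 6, with a median of 0.76. Slpi, secretory leukocyte protease inhibitor, a blocker of elastase and cathepsin G, averaged 693 ± 38.6 TPM in G and 258 ± 40.4 TPM in M, a change of 1.43 ± 0.32 (adjusted p = 0.000874). In spleen neither G against M comparison called an inhibitor. Against marrow M, BALB/c spleen M had 3 of 6 higher and 1 lower. The lower one was Serpinb1a, a cytosolic inhibitor of elastase, at 155 TPM in spleen and 378 TPM in marrow.

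Among 8 regulators of granulocyte and monocyte precursors, marrow G against M had 1 higher and 2 lower. Irf8, a factor of monocyte and dendritic fate, was at 38.3 TPM in G and 150.1 TPM in M, and Cebpa, which directs myeloid progenitors to the granulocyte and monocyte line, was at 6.91 TPM in G and 23.5 TPM in M. Myb, a factor of immature cells that binds granule enzyme promoters, ran the other way, at 189.8 TPM in G and 64.6 TPM in M. Marrow G also held more B cell RNA than marrow M, as given above, and the part of those cells in the Myb level was not tested. In BALB/c spleen M against marrow M, Cebpe, needed for secondary granules, was at 17.2 TPM in spleen and 272 TPM in marrow, Gfi1 at 3.26 TPM in spleen and 18.5 TPM in marrow, and Myb at 13.8 TPM in spleen and 64.6 TPM in marrow, all 3 called lower of 8. In APCmin/+ M against marrow M the same 3 regulators were called lower, with Cebpe at 91.3 TPM in spleen.

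Later granule genes did not set the marrow sorts apart as a list. Of 12 secondary and tertiary granule genes, marrow G against M had 2 higher and 1 lower, with a median of -0.09. Beside them, 1886 of the 18466 genes tested were called in either direction, with a median of 0.04 over all genes. Mmp8 and Mmp9, collagenase and gelatinase, were called higher in G, and Chil3 was called lower. The lower call (adjusted p = 0.0476) was lost with each single library left out, with no filter, with rescaling and with a pseudocount of 0.1. In place of 2, 1 was called higher with no filter, with a pseudocount of 0.1 and without any 1 G library or M library 3, and 0 without M library 2. In BALB/c spleen M against marrow M, 11 of 12 were lower, with a median of -4.30, near the median of -4.37 for the 5 enzymes, and 14 of 14 cell cycle genes were lower. In APCmin/+ M against marrow M, 2 of 12 were called lower, Olfm4 and Itgb2l (1 without APCmin/+ library 1 or any 1 marrow library and 3 without APCmin/+ library 2 or 3), with a median of -0.75 beside -4.09 for the 5 enzymes, and 11 of 14 cell cycle genes were lower. In marrow M against all marrow cells, 11 of 12 were higher with a median of 1.86, while the 5 enzymes had a median of -0.68. None of the 5 enzymes was called there, and the difference of the 2 medians was not tested.

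**Figure D5:**
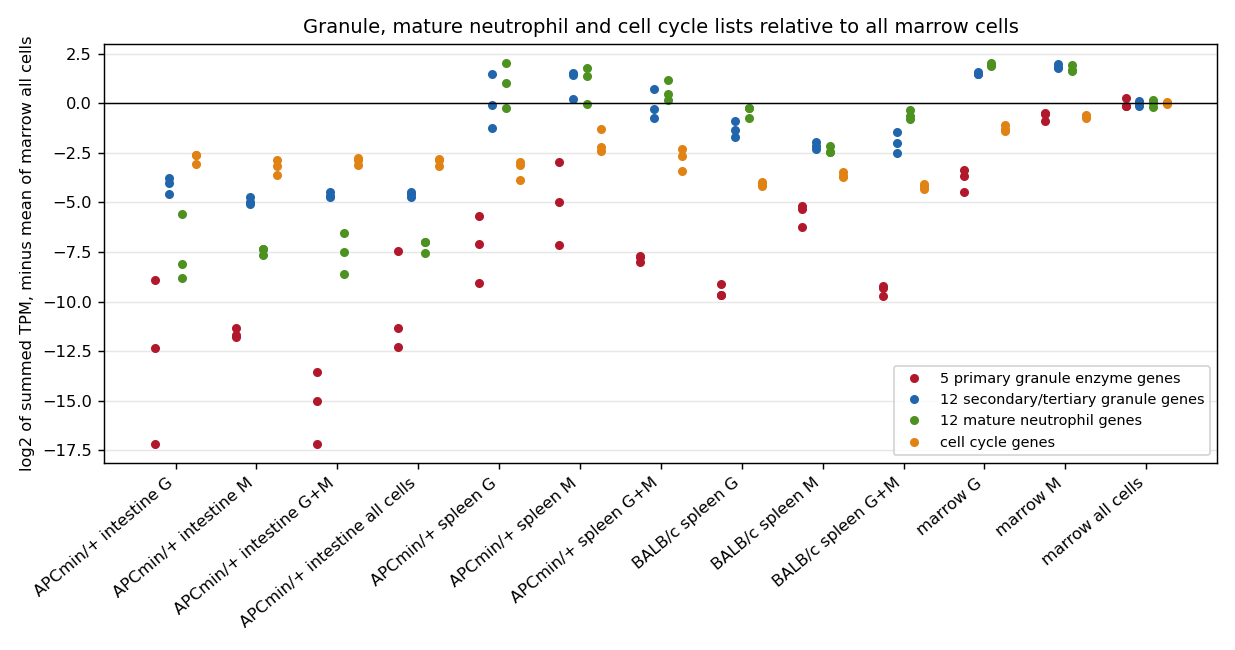
Log2 of the summed TPM of 4 gene lists in each library, minus the mean of the 3 libraries of all marrow cells, by group. By group mean the primary granule enzyme genes lie furthest below unsorted marrow in every spleen and intestinal group, while the secondary and mature neutrophil lists reach or pass it in some APCmin/+ spleen libraries.

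On chromosome 10 of GRCm38, 3 of the 5 genes lie together (GENCODE M21 gene spans): Prss57 at chr10:79781474-79790961 on the minus strand, Prtn3 at chr10:79874476-79883174 and Elane at chr10:79886247-79888215, both on the plus strand. Mpo is at chr11:87793581-87804413 on the plus strand and Ctsg at chr14:56099881-56102574 on the minus strand. For Mpo, Elane and Prtn3 these spans begin before the RefSeq start used for the promoters. The motif positions above therefore hold for the RefSeq start only. Around Elane, 14 neighbours within 100 kb were tested, of which Prss57, Prtn3 and Plppr3, 3 in all, were lower in marrow G than in M and 1 was higher. The higher one was Kiss1r, at 4.50 TPM in G and 1.73 TPM in M (log2 fold change 1.01, adjusted p = 0.00171). Plppr3, a phospholipid phosphatase related gene between them, was at 3.21 TPM in G and 24.6 TPM in M, a change of -2.60. Its span shares 159 bases with that of Prtn3 on the opposite strand, and since the strand setting of the counting is not given in the sources used here, reads of those bases cannot be assigned with certainty. Palm, between Prss57 and Plppr3, was at 89.2 TPM in G and 88.7 TPM in M. Around Mpo, 1 of 10 tested neighbours was lower (Tspoap1, -1.17), and Gm11505, an antisense gene that shares 5361 bases with Mpo, was at 0.147 TPM in G and 1.22 TPM in M. None of the 4 tested neighbours of Ctsg was called.

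The genes most like each member were named by Pearson r over the 39 libraries, among 9152 genes with a mean of at least 20 TPM in some group. For Elane and Prtn3 the first was Ms4a3, a membrane protein of granulocyte and monocyte progenitors (r = 0.958 and 0.97), followed by Plppr3 and Dek. For Ctsg it was Mcpt8 (0.966), and for Mpo it was Bub3, a spindle checkpoint gene (0.961), with E2f1 and Mcpt8 also among its 5. For Prss57 it was Gfi1, a repressor needed for neutrophil development (0.971). These values rest mainly on differences between groups: for deviations from the group means Bub3 gave 0.349 with Mpo and Gfi1 0.279 with Prss57, while Mcpt8 gave 0.872 with Ctsg and Ms4a3 0.781 with Prtn3. Single libraries can weigh on these deviations, such as APCmin/+ spleen M library 2. It held 33.3 TPM of Ctsg against 2.88 and 6.43 TPM in libraries 1 and 3. By rank, Mcpt8 was again first for Ctsg and Ms4a3 second for Prtn3, whereas Bub3 was 107th for Mpo.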

How the data were processed

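RNA sequencing covered 39 samples, whose titles give their 13 groups. Per the submitters' processing notes, the authors used bcl2fastq 2.18, STAR 2.6.1c, RSEM and mm10, and per the labels' protocols the libraries came from a stranded mRNA kit. The RSEM version, the annotation and the setting for strand were not given in the sources used here. Values were deposited as TPM per gene, as the authors made them, with totals of 999999 to 1000001 in each library. TPM keeps no counts, so depth is unknown, and no counting error can be given. Symbols turned into dates (26) were restored from gene identifiers. All libraries differed from each other.

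Of 35653 genes above 0, the 18466 with 1 TPM or more in 3 or more libraries were tested as log2(TPM + 1), with a pseudocount of 1, in limma 3.58.1 (R 4.3.3). The model held 1 mean per group over all 39 libraries, with a variance trend and 26 residual degrees of freedom, and two-sided moderated p-values were Benjamini-Hochberg adjusted over those genes in each of 17 comparisons and 2 differences of comparisons. The code was tested on simulated data. Named were the 5 members, up to 4 called genes per list with a mean of at least 5 TPM in the higher group by fold change, the 5 genes most like each member, markers of other cells beside a result, and genes near the members. The motifs, Ly6g and Ngp were added after the data were seen. The members and the lists were chosen with earlier results of these data known, so no list is independent evidence.

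Alternatives were a pseudocount of 0.1, no filter, median-ratio rescaling over 6908 genes, a fit of only the groups compared, no fold minimum, a replicate block, and each library left out. Libraries of the same number deviated together (every correlation over 0.1) in APCmin/+ spleen G against M (0.555, 0.375 and 0.404), intestinal G against M (0.599, 0.432 and 0.562) and intestinal (G+M) against all cells (0.643, 0.59 and 0.628), and in no other comparison. There the numbers are taken to pair the libraries, from the data and not from the labels.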

Additional observations from a re-analysis of the deposited data

Results flagged for a closer look

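The G against M difference of Prss57, neutrophil serine protease 4, differed between BALB/c spleen and newborn marrow by a direct test. Spleen minus marrow came to 1.17 on the log2 scale (SE 0.36, adjusted p = 0.0263 in limma over 18466 genes). The log2 fold change of Prss57 in G against M was 0.17 in BALB/c spleen, with overlapping libraries, and -1.0 in marrow, without overlap. Mpo, Elane, Prtn3 and Ctsg gave no such call, and 1.51% of all genes tested did in this direction. Over single libraries left out the value stayed between 1.05 and 1.41, and the call was lost without each of 5 of them, marrow G library 1, marrow M library 2, BALB/c G library 2 and BALB/c M libraries 1 and 3. All BALB/c spleen values of Prss57 were 1.55 TPM or less, close to the pseudocount of 1.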

How the results depend on the processing

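Of 95 member values per setting, 83 kept direction and call with a pseudocount of 0.1, 93 with no filter, 92 with rescaling, 83 in a fit of only the groups compared, 82 with a replicate block and 93 with no fold minimum. Of 630 values with 1 library left out, 570 did. The cause of the changes was not tested.
Members called lower in APCmin/+ spleen G against M numbered 0 in place of 3 with a pseudocount of 0.1, with only the groups compared and with the replicate block, and 0 to 5 over single libraries left out. For APCmin/+ against BALB/c spleen, members called higher in G numbered 0 in place of 3 with only the groups compared, with the block and without the libraries numbered 2 (chosen after the data were seen), and 0 to 4 over single libraries. In M they numbered 0 in place of 1 with only the groups compared and with the block, and 1 to 3 over single libraries. In (G+M) they numbered 2 in place of 0 with only the groups compared, and 1 with a pseudocount of 0.1 or the block. Members called lower in APCmin/+ spleen M against marrow M numbered 1 in place of 5 with the block, although these libraries are not paired by number. In intestinal against spleen G they numbered 3 in place of 5 without the libraries numbered 2 and with only the groups compared, and 2 to 5 over single libraries. In marrow M against all cells 1 was called lower, in place of 0, with only the groups compared, with the block and with no fold minimum. A pseudocount of 0.1 also gave 1 called lower in place of 0 in intestinal G against M and in intestinal (G+M) against all cells, and 0 in place of 1 for the difference between BALB/c spleen and marrow, which ranged from 0 to 1 over single libraries. For that between APCmin/+ spleen and marrow the range was 0 to 2. In the intestinal comparisons paired by number, the block changed no member's call.
Directions turned only for values that were not called. Without the libraries numbered 2, APCmin/+ against BALB/c spleen M gave -0.19 for Mpo, -0.85 for Elane and -0.63 for Prtn3, and over single libraries these ranged from -0.19 to 2.17, -0.85 to 1.20 and -0.63 to 1.29. For the difference between BALB/c spleen and marrow, a pseudocount of 0.1 gave -1.58 for Ctsg and -0.11 for Prtn3, rescaling gave 0.16 for Mpo, and single libraries gave -0.39 to 0.27 for Mpo. For that between APCmin/+ spleen and marrow, a pseudocount of 0.1 gave -0.18 for Prss57, and single libraries gave -0.22 to 0.41 for Prss57 and -0.05 to 2.31 for Mpo. Single libraries gave -0.04 to 0.59 for Prss57 in APCmin/+ against BALB/c spleen G, and -0.06 to 0.44 for Elane and -0.12 to 0.57 for Prtn3 in intestinal G against M.
Over all genes, APCmin/+ spleen G against M had 594 called, and 0 with only the groups compared or the block. Without G library 1 or 3 it had 939 or 373. Intestinal G against M had 523, 66 with only the groups compared and 261 with the block, and intestinal (G+M) against all cells had 599, then 5 and 0, and 364 without all-cell library 2. APCmin/+ against BALB/c spleen had 548 with the block in place of 1638 in G, 297 in place of 2120 in M and 393 in place of 1662 in (G+M), with 1047 in M and 994 in (G+M) for only the groups compared. APCmin/+ spleen M against marrow M had 1714 with the block in place of 2907. A pseudocount of 0.1 raised the count in 7 comparisons by 1.55 to 1.66 times and no fold minimum in 19 by 1.58 to 6.48 times. Rescaling moved the share of higher calls to 45.7% in place of 18.0% in APCmin/+ spleen G against M, to 45.7% in place of 34.5% in BALB/c spleen G against M, to 48.3% in place of 34.9% and 59.6% in place of 48.0% in G and M of APCmin/+ against BALB/c spleen, and to 60.8% in place of 35.7% in intestinal against spleen M. It moved the median of all genes by over 0.1 in 8 comparisons, at most in intestinal against spleen M, where it was -0.43 before and 0 after. TPM keeps no depth, so values near 0 have unknown counting error.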

Other observations

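A pair of eosinophil granule genes had their highest group means in unsorted newborn marrow. Epx, eosinophil peroxidase, which lies on chromosome 11 near Mpo, averaged 27.0 TPM in marrow G, 31.8 TPM in marrow M and 110.02 TPM in all marrow cells, and at most 1.39 TPM in any spleen or intestinal group. Prg3, an eosinophil granule protein, averaged 12.6 TPM in marrow G, 16.2 TPM in marrow M and 58.3 TPM in all marrow cells, and at most 2.79 TPM in any spleen or intestinal group. The test of Epx against all marrow cells is not reported here. Against them, Prg3 was called lower in G (log2 fold change -2.02 ± 0.35, SE, adjusted p = 1.63e-05 in limma) and in M (-1.64 ± 0.35, adjusted p = 0.000236). Between the marrow sorts, G against M gave -0.37 ± 0.35 for Prg3 (adjusted p = 0.484) and -0.25 for Epx (adjusted p = 0.689), with overlapping libraries for both. Epx and Prg3 were picked after their values were seen.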
